A study of Mus musculus with 24 samples.

Results

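Splicing factors and heterogeneous nuclear ribonucleoproteins (hnRNPs) were examined over the day in mouse epidermis without and with Bmal1. They were chosen by symbol, as the protein-coding genes whose symbol begins with Srsf, Hnrnp, Sf3a, Sf3b, U2af, Prpf or Snrp, and they made up 68 of the 17721 genes in the table used. By role they comprised 11 SR proteins (Srsf), 20 hnRNPs (Hnrnp), 12 branch point factors (Sf3a, Sf3b and U2af), 13 PRPF proteins (Prpf) and 12 proteins of the small nuclear ribonucleoproteins, or snRNPs (Snrp). All 68 genes that GENCODE mouse M21 lists under these prefixes were in the table, so no member was lost to a filter on low values.

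The 24 RNA-seq libraries of the series come from epidermis of the back skin of C57BL/6 male mice aged 8 weeks, called EpiKO, in which a Cre recombinase under the keratin 14 promoter (K14-Cre) knocked out Bmal1. Bmal1, which the gene table lists as Arntl, encodes a transcription factor at the core of the circadian clock. In a cycle of 12 h light and 12 h dark, 4 mice were sampled at each of zeitgeber time (ZT) 0, 4, 8, 12, 16 and 20, with lights on at ZT0 and standard chow freely available. The authors compared these mice with wild-type (WT) epidermis by dryR, which fits a 24 h cosine curve to each gene in each genotype, and the question was which daily rhythms differ once the epidermal clock is lost. WT libraries belong outside the series and were not analysed here on their own. K14-Cre acts in keratinocytes, so pigment cells and immune cells of the epidermis are taken to keep the gene. Which other tissues of the animal keep it was not examined here.

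Pre-mRNA splicing is carried out by the spliceosome, which is built on each intron from snRNPs and many further proteins. The U2AF proteins and the SF3A and SF3B complexes place the U2 snRNP at the branch point, and PRPF proteins bring in the tri-snRNP and drive the rearrangements that make the complex active. SR proteins bind exons and mostly favour the use of nearby splice sites, hnRNPs coat the nascent transcript and often hold splice sites back, and the balance of these families shapes alternative splicing in epidermis as in other tissues.

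The table holds 1 fit per gene and no values per library, so the depth is unknown and no spread between mice, standard error or test can be given for any value here. The libraries of both genotypes are also different sets, so genotype cannot be told apart from a difference in how the libraries were made or counted. Arntl itself, by the authors' deposited table, was assigned to the class rhythmic in WT only with a weight of 0.882, and its mean level was 9.65 in EpiKO and 9.50 in WT (log2). The mean therefore does not show the knockout, the sources used here do not say which exons were removed, and the 4.65-fold WT rhythm of Arntl was absent from the EpiKO fit. The 7 measured of 8 keratinocyte markers had means of 10.16 to 17.73 in EpiKO and 9.70 to 17.82 in WT in the authors' deposited table. Their summed level, 19.39 in EpiKO and 19.55 in WT (log2), was the highest of the 7 marker lists. Melanocyte markers had 2.67 to 7.60 in both genotypes, Langerhans cell markers 7.28 to 10.82 in EpiKO and 5.80 to 10.82 in WT, and fibroblast markers 6.53 to 8.23 in EpiKO and 5.56 to 7.99 in WT in the authors' deposited table. T cell markers had 6.64 to 7.57 in EpiKO and 6.64 to 6.68 in WT, and endothelial markers 0.56 to 3.42 in EpiKO and -1.77 to 2.91 in WT in the authors' deposited table. Of the 2 skeletal muscle markers, Ckm had 0.68 in both genotypes, and Acta1 had 2.21 in EpiKO and 9.90 in WT in the authors' deposited table. The high WT value is thus that of Acta1 alone. The part of other cell types in the values below was not tested, and in bulk tissue fewer cells of a type and less RNA per cell cannot be told apart.

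Of the 68 members, 30 were assigned to a class with a rhythm in at least 1 genotype, 25 to the class with none, and 13 to no class. Assignment used the weight, from 0 to 1, that the authors' fit gave to each of 5 models, and a gene was assigned where its largest weight was at least 0.5. The weight is a share of model support built from the Bayesian information criterion and is not a p-value. The class with the same rhythm in EpiKO and WT held 14 members (20.6%), against 16.7% of all genes and 25.4% of the 8200 genes with an average mean level of at least 8 (log2), a level that 64 of the 68 members reached. The class rhythmic in EpiKO only held 4 members (5.88%), against 4.31% of all genes and 4.74% of the better expressed genes. The class rhythmic in WT only held 11 members (16.2%), against 8.41% and 12.3%, and the class with different rhythms held 1 member (1.47%), against 2.65% and 3.52%. The class with no rhythm held 36.8% of members, against 56.7% of all genes and 40.1% of the better expressed ones. Set against genes of like level, then, the members were rhythmic about as often (44.1% of members, 46% of those genes and 32% of all genes). Of the 64 members at that level, 21.9% had the same rhythm and 17.2% were rhythmic in WT only, against 25.4% and 12.3%. These shares rest on 14 and 11 members, and the differences were not tested. The calls rest on modest weights: at a limit of 0.8 the classes held 6 members with the same rhythm, 1 rhythmic in EpiKO only, 2 in WT only, 0 with different rhythms and 8 with none. With a daily height of at least 0.25 (log2) required, 5 had the same rhythm and 5 were rhythmic in WT only.

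**Figure D1:**
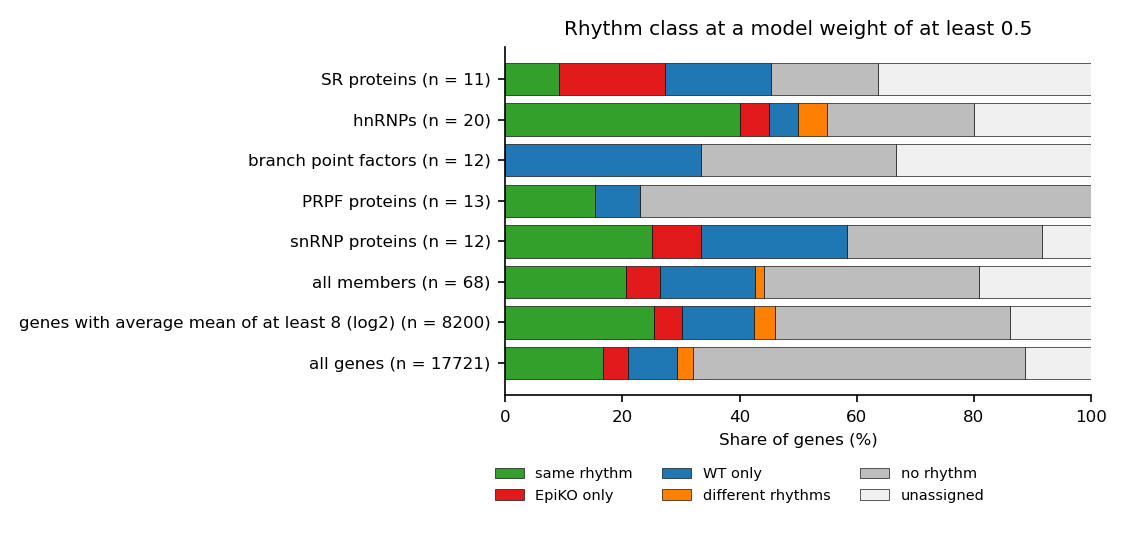
Share of genes (%, horizontal axis) in each rhythm class, for each family, all 68 members, the genes with an average mean level of at least 8 (log2) and all 17721 genes. The hnRNPs have the widest same-rhythm bar, 8 of 20, the branch point factors have none, and 10 of 13 PRPF proteins have no rhythm.

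Class counts were uneven across the families. Of 20 hnRNPs, 8 had the same rhythm in both genotypes, whereas 0 of 12 branch point factors did and 4 of those 12 were rhythmic in WT only. Of the PRPF proteins, 10 of 13 had no rhythm, 2 had the same rhythm and 1 was rhythmic in WT only. The snRNP proteins had 3 with the same rhythm, 1 rhythmic in EpiKO only, 3 in WT only and 4 with none of 12, and the SR proteins had 1, 2, 2 and 2 of 11 in the same order. Summed over the models with a rhythm in a genotype, the median weight of the hnRNPs was 0.797 in EpiKO and 0.568 in WT, and that of the branch point factors was 0.132 in EpiKO and 0.514 in WT. The same medians were 0.379 in EpiKO and 0.502 in WT over all 68 members, and 0.181 in EpiKO and 0.213 in WT over all genes. These are descriptions, and no difference between families was tested.

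**Figure D2:**
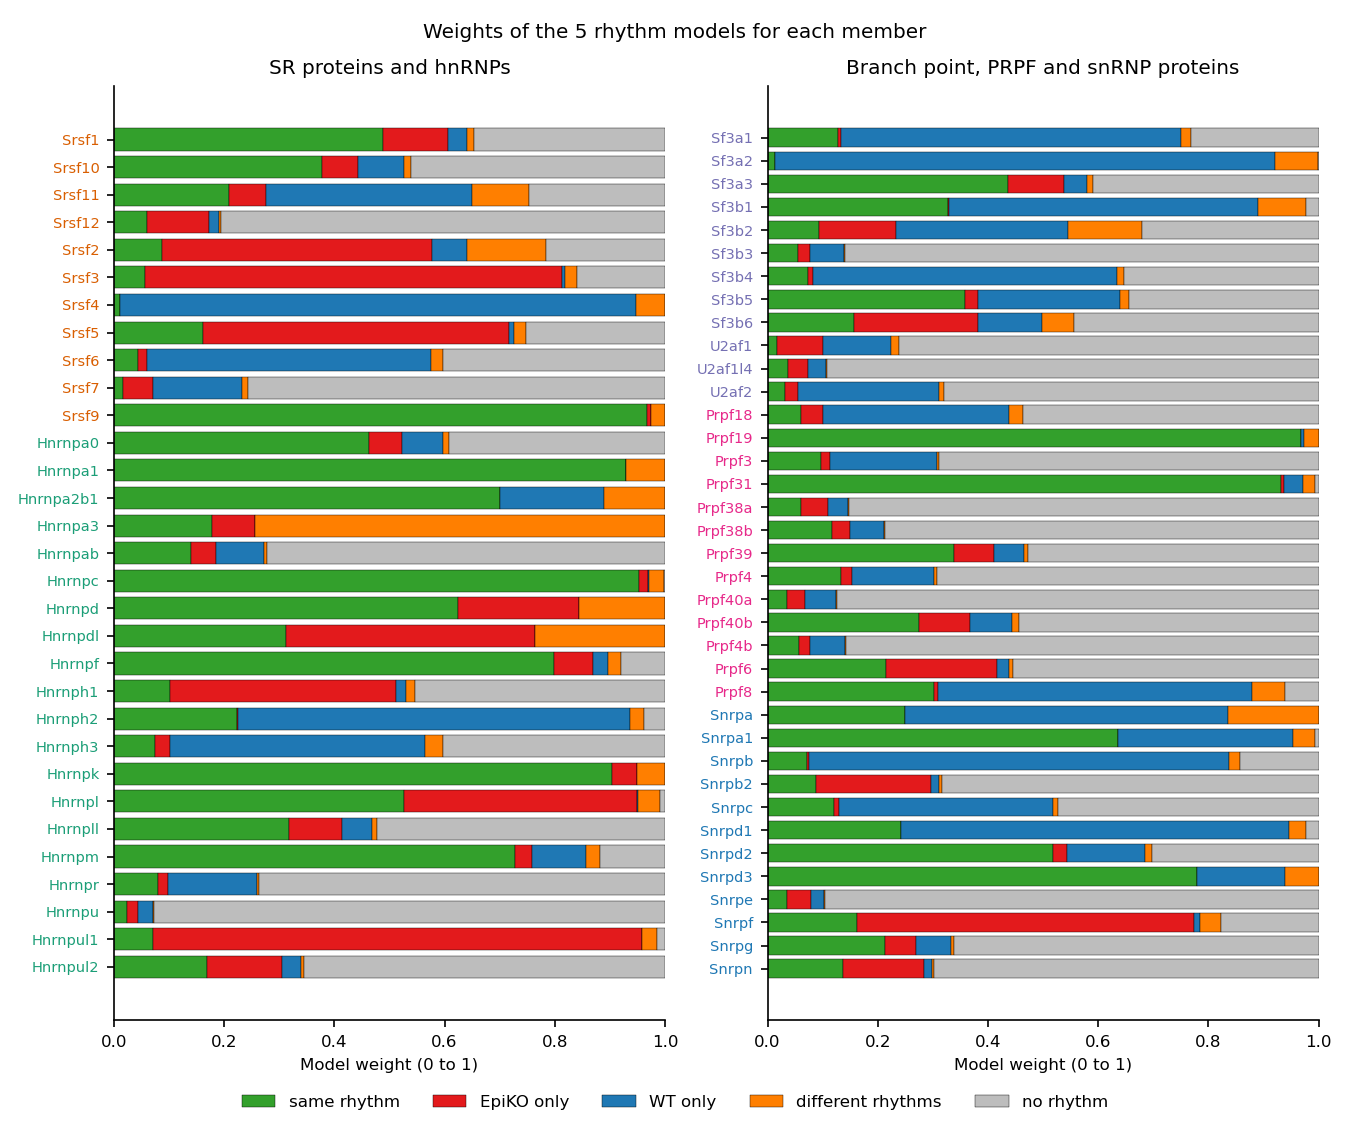
Weight (0 to 1, horizontal axis) of each of the 5 rhythm models for each of the 68 members, with the SR proteins and hnRNPs on the left and the branch point, PRPF and snRNP proteins on the right; label colours mark the families. Green runs furthest in Srsf9, Prpf19, Hnrnpc, Prpf31, Hnrnpa1 and Hnrnpk, red in Hnrnpul1, Srsf3 and Snrpf, and blue in Srsf4 and Sf3a2.

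Among the SR proteins, those rhythmic in EpiKO only peaked early in the light phase and those rhythmic in WT only near the start of the dark phase. Srsf3 (chr17:29032628-29043373, plus strand, mm10), which couples splicing to mRNA export, had a fitted peak of 12.19 and trough of 11.83 (log2) in EpiKO, and was flat at 12.27 in WT, in the authors' deposited table. That is a 1.28-fold daily change in EpiKO, and the authors' deposited table placed its peak at ZT3.32 with an EpiKO-only weight of 0.758. Srsf5 (chr12:80945504-80950507, plus strand), another SR protein that binds exons, ran between 12.53 and 12.83 in EpiKO and was flat at 12.82 in WT in the authors' deposited table, a 1.23-fold change. Its peak stood at ZT4.23 and its EpiKO-only weight at 0.554 in the authors' deposited table. In EpiKO, Srsf3 lay below its WT level all day, and Srsf5 reached its WT level at the peak only. Srsf2, which also binds exons, narrowly missed assignment with an EpiKO-only weight of 0.491, a peak at ZT4.93 and a 1.27-fold change in the authors' deposited table.

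Srsf4 (chr4:131873617-131901706, plus strand), a larger SR protein, showed the opposite pattern. In the authors' deposited table its level was flat at 8.64 in EpiKO and ran between 10.30 and 10.67 in WT, a 1.29-fold change with its peak at ZT14.0 and a WT-only weight of 0.937. The EpiKO level lay below the WT trough throughout, and 39.4% of the 51-base windows of Srsf4 transcripts also occur in Gm12992, a transcript on the opposite strand. Srsf3 and Srsf5 shared 9.89% and 9.95% of their windows with other genes. Srsf6 peaked at ZT12.2 in WT with a WT-only weight of 0.516 by the authors' deposited table, and its change was 1.15-fold. Srsf9 was the single SR protein with the same rhythm in EpiKO and WT. In the authors' deposited table it ran between 9.26 and 9.48 in EpiKO and between 9.42 and 9.64 in WT with its peak at ZT16.6 and a weight of 0.968. None of its windows occurs in another gene. Srsf7 and Srsf12 had no rhythm, with weights of 0.756 and 0.807 in the authors' deposited table, and Srsf12, with a mean of 2.86 in both genotypes there, had the lowest level of the SR proteins per kilobase of exon, 1.20 (log2) in both. Srsf1, Srsf10 and Srsf11 were not assigned.

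The hnRNPs held the main same-rhythm group, and it split by time of day, as did all genes of the class. Of those 2954 genes, 743 peaked between ZT4 and ZT8 and 862 between ZT16 and ZT20, the fullest spans of 4 h. Hnrnpa1, Hnrnpd, Hnrnpk and Hnrnpl peaked in the light phase between ZT4.82 and ZT6.36, and Hnrnpf, Hnrnpm, Hnrnpc and Hnrnpa2b1 in the dark phase between ZT15.0 and ZT22.3, by the authors' deposited table. Hnrnpa1 (chr15:103240432-103246692, plus strand), an abundant repressor of exon inclusion, ran between 11.79 and 12.23 in EpiKO and between 12.97 and 13.41 in WT in the authors' deposited table. Its change was 1.36-fold in both genotypes, with a peak at ZT5.56 and a same-rhythm weight of 0.929 by the authors' deposited table. Hnrnpd (chr5:99955935-99978938, minus strand), which binds AU-rich RNA and affects its decay, ran between 10.99 and 11.32 in EpiKO and between 11.35 and 11.68 in WT in the authors' deposited table, a 1.26-fold change. For Hnrnpd the authors' deposited table gave a peak at ZT6.10 and a weight of 0.624. For both genes the fitted daily ranges of EpiKO and WT did not overlap, because the fitted curves share shape and differ in mean. Such ranges run from fitted trough to fitted peak and do not show the spread between mice. Hnrnpk, which binds C-rich RNA and DNA, changed 1.13-fold around ZT6.36, and Hnrnpl, which binds CA repeats, changed 1.12-fold around ZT4.82, with weights of 0.903 and 0.526 in the authors' deposited table. The Hnrnpl weight was close to the limit, and its next model, rhythmic in EpiKO only, held most of the rest.

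The windows around the transcript starts of these 4 light-phase genes are printed because their rhythm had the same fit without epidermal Bmal1, and BMAL1 with its partner CLOCK binds the E-box CACGTG. RefSeq windows on GRCm38.p6, from 250 bases before to 50 after a start, were found by symbol for 59 of the 68 members, 80 windows of 300 bases each. Capitals mark the E-box CACGTG, the ETS motif CCGGAAG and the CCAAT box (CCAAT), each on either strand, and overlaps between motifs were counted for each. The windows are chr15:103240147-103240446, plus strand for Hnrnpa1, chr5:99978889-99979188, minus strand for Hnrnpd, chr13:58402068-58402367, minus strand for Hnrnpk and chr7:28810640-28810939, plus strand for Hnrnpl.
Hnrnpa1: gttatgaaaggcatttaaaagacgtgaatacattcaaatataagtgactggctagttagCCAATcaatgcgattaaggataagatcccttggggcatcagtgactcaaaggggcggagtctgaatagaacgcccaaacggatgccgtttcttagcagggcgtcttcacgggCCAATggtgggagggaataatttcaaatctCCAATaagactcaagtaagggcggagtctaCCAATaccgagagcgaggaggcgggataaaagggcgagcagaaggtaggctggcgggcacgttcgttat
Hnrnpd: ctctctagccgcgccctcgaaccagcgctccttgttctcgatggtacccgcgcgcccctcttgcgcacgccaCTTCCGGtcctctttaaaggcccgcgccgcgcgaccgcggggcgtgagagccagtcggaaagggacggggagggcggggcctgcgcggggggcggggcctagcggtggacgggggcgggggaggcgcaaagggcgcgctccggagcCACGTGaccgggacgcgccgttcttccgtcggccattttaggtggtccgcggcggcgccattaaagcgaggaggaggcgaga
Hnrnpk: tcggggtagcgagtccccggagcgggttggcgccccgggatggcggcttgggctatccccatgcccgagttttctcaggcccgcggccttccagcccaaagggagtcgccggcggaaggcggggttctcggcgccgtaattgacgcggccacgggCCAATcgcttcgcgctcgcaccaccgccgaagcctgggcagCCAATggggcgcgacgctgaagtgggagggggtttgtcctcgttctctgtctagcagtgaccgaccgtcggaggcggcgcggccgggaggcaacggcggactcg
Hnrnpl: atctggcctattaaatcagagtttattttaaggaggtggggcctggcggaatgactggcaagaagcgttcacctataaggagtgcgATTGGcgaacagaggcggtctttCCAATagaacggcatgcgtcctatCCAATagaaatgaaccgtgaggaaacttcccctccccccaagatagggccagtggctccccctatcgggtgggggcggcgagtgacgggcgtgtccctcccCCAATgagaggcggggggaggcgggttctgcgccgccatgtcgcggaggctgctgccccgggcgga
Hnrnpa1 and Hnrnpl each had 4 CCAAT boxes, Hnrnpk had 2 and Hnrnpd none. Hnrnpd had the single E-box among the 4, at position -32 (first base of the motif, with the transcript start as 0), and an ETS motif at -178.

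Across the members the motif shares were as follows. An E-box stood in 11 of 80 member windows (13.8%), against 7.15% of all 32851 windows, in 3 of 19 windows (15.8%) of members with the same rhythm, in 3 of 11 windows (27.3%) of WT-only members and in 4 of 27 windows (14.8%) of members with no rhythm. Counted by gene, that was 3 of 14 same-rhythm, 2 of 8 WT-only and 3 of 20 no-rhythm members with a window. Snrpa alone gave 2 of the 3 WT-only windows. A CCAAT box stood in 47.5% of member windows against 37.4% of all windows, in 12 of 19 windows (63.2%) of same-rhythm members in 2 of 11 windows (18.2%) of WT-only members and in 11 of 27 (40.7%) of members with no rhythm. The ETS motif stood in 31.3% of member windows against 8.86% of all windows, and the GC box GGGCGG in 63.8% against 35.7%. The TATA box TATAAA stood in 8.75% of member windows against 13.6%. The cAMP response element TGACGTCA was in 2.5% of member windows against 1.79%. All windows cover 27025 genes and were not limited to measured genes or to genes of like level. The shares therefore do not show a trait particular to the members. A match describes the letters of a window and shows neither binding nor a cause, and windows of 1 gene share sequence.

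The dark-phase hnRNPs with the same rhythm had small changes. Hnrnpc, which binds U-rich tracts, changed 1.18-fold with a peak at ZT19.1 and a weight of 0.953 by the authors' deposited table. Hnrnpa2b1, a reader of RNA sorting signals and close relative of Hnrnpa1, changed 1.15-fold with a peak at ZT22.3 and a weight of 0.700 by the authors' deposited table. Hnrnpf, which binds G-rich tracts, changed 1.11-fold with a peak at ZT15.0 and a weight of 0.798 by the authors' deposited table. Hnrnpm changed 1.09-fold, the smallest fold among the 30 rhythmic members, with a peak at ZT18.2 in the authors' deposited table. Hnrnpa1 thus peaked in the light phase and Hnrnpa2b1 late in the dark phase. Of the 8 hnRNPs with the same rhythm, 2 had few windows of their transcripts in other genes, 0.504% for Hnrnpa2b1 and 1.45% for Hnrnpl, and the others had 5.04% (Hnrnpd), 8.12% (Hnrnpc), 13.5% (Hnrnpm), 17.6% (Hnrnpk), 28.2% (Hnrnpa1) and 61.7% (Hnrnpf), so reads of these could belong in part to other genes.

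The remaining rhythmic hnRNPs differed between the genotypes. Hnrnpul1 (chr7:25721165-25754757, minus strand), an RNA-binding protein also known from DNA repair, ran between 11.76 and 11.96 in EpiKO and was flat at 11.98 in WT in the authors' deposited table, a 1.15-fold change. Its peak stood at ZT6.15 and its EpiKO-only weight at 0.888 in the authors' deposited table, and 0.37% of its windows occur in other genes. Its EpiKO peak lay just under the WT level and the rest of its day further below it. Hnrnph2, a relative of Hnrnpf on chromosome X, had no rhythm in EpiKO and a 1.16-fold change in WT with a peak at ZT22.9 and a weight of 0.712 by the authors' deposited table. Hnrnpa3 (chr2:75659261-75669407, plus strand), another relative of Hnrnpa1, was the single member with different rhythms. In the authors' deposited table it ran between 9.33 and 9.64 in EpiKO with a peak at ZT4.25, and between 13.42 and 13.61 in WT with a peak at ZT0.408. The changes were 1.24-fold in EpiKO and 1.14-fold in WT with a different-rhythms weight of 0.743 in the authors' deposited table, and 27.0% of its windows occur in 45 other genes.

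Hnrnpdl, a relative of Hnrnpd, had the largest fitted change of all members, 1.50-fold in EpiKO around ZT4.81 in the authors' deposited table, but was not assigned, as its largest weight was 0.452 for the EpiKO-only model. Its summed weight for a rhythm was 1.00 in EpiKO and 0.548 in WT, so the fit placed a rhythm in EpiKO and divided over WT. Hnrnpab and Hnrnpu had no rhythm, with weights of 0.722 and 0.928 in the authors' deposited table, and in EpiKO were the most abundant hnRNPs of that class per kilobase of exon, while in WT Hnrnpul2 (9.90) lay above Hnrnpu. Their levels per kilobase were 10.67 in EpiKO and 11.68 in WT for Hnrnpab, and 9.93 in EpiKO and 9.76 in WT for Hnrnpu (log2).

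The windows of 3 members whose fitted rhythm differed between the genotypes and that hold an E-box are printed for comparison with Hnrnpd. They are chr2:75659009-75659308, plus strand for Hnrnpa3, chrX:134600929-134601228, plus strand for Hnrnph2 and chr7:27196222-27196521, minus strand for Snrpa, the U1 snRNP protein described further on, with the same motifs in capitals.
Hnrnpa3: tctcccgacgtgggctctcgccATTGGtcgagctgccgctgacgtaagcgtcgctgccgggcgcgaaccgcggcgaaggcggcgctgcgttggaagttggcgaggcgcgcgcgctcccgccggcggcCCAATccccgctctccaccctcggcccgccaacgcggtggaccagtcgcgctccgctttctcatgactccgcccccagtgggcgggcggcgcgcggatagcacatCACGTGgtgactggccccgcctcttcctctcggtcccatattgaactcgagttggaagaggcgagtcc
Hnrnph2: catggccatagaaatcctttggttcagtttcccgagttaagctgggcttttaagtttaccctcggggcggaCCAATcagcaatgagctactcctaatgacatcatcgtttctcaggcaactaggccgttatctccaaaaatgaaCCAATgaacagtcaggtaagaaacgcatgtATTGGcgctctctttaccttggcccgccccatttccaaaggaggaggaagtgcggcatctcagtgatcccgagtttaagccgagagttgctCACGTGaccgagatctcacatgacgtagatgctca
Snrpa: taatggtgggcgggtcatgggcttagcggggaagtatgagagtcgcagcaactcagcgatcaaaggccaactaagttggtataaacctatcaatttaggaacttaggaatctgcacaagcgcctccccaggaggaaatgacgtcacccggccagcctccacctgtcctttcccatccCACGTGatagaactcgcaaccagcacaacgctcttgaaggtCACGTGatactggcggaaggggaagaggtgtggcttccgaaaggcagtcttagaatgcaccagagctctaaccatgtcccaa
The E-box stood at -18 in Hnrnpa3, at 15, inside the transcript, in Hnrnph2, and at both -73 and -32 in Snrpa. Among all 9 members with an E-box, 3 had the same rhythm (Hnrnpd, Hnrnpf and Hnrnpm), 2 were rhythmic in WT only (Hnrnph2 and Snrpa), 1 had different rhythms (Hnrnpa3) and 3 had no rhythm (Prpf3, Prpf39 and Prpf40b).

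No branch point factor was assigned a rhythm in EpiKO. In WT, 4 of 12 were rhythmic, all of them subunits of SF3A or SF3B. Sf3a2 (chr10:80798198-80804924, plus strand), a core subunit of SF3A, was flat at 9.12 in EpiKO and ran between 9.63 and 9.95 in WT in the authors' deposited table, a 1.25-fold change. The authors' deposited table placed the peak at ZT16.8 with a WT-only weight of 0.906, and 15.8% of its windows are shared, mainly with Plekhj1 on the opposite strand. Sf3b1 (chr1:54985169-55027481, minus strand), the subunit that holds the branch point adenosine, was flat at 13.24 in EpiKO and ran between 12.64 and 13.00 in WT in the authors' deposited table, a 1.29-fold change. Its peak at ZT10.3 was the single light-phase peak of the WT-only class, at a weight of 0.559 by the authors' deposited table. So Sf3a2 lay below its fitted WT range in EpiKO and Sf3b1 above it. The summed weight for a rhythm in EpiKO was 0.0938 for Sf3a2 but 0.418 for Sf3b1, so support for a flat Sf3b1 in EpiKO was divided. Sf3b4 (chr3:96172332-96177564, plus strand) changed 1.17-fold in WT around ZT15.8, and Sf3a1 1.11-fold around ZT19.5, with weights of 0.552 and 0.617 in the authors' deposited table. U2af1 and U2af2, the subunits that read the end of the intron, had no rhythm, with weights of 0.762 and 0.680 in the authors' deposited table, as did U2af1l4 and Sf3b3. Sf3a3, Sf3b2, Sf3b5 and Sf3b6 were not assigned.

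The PRPF proteins were mostly flat. Prpf31 (chr7:3629985-3642486, plus strand), which joins the U4/U6 and U5 snRNPs into the tri-snRNP, ran between 9.04 and 9.30 in both genotypes by the authors' deposited table, a 1.20-fold change with a peak at ZT19.7 and a weight of 0.932. Prpf19 (chr19:10895231-10909559, plus strand), the ubiquitin ligase of the complex that activates the spliceosome, ran between 10.91 and 11.12 in EpiKO and between 10.65 and 10.86 in WT in the authors' deposited table. It changed 1.16-fold with a peak at ZT18.2 and a weight of 0.968 by the authors' deposited table. The fitted ranges of Prpf19 did not overlap, with EpiKO the higher, whereas those of Prpf31 were identical because its fit had a single mean. Prpf8 (chr11:75486816-75509449, plus strand), the scaffold of the catalytic centre, was flat at 12.51 in EpiKO and ran between 12.54 and 12.76 in WT with a peak at ZT22.2 and a weight of 0.571 by the authors' deposited table, a 1.16-fold change. Its summed weight for a rhythm in EpiKO was 0.367, so the flat EpiKO curve is that of the chosen model only. Prpf38b, and Prpf4b, a kinase that acts on spliceosome proteins, were the most abundant PRPF members of the no-rhythm class per kilobase, with no-rhythm weights of 0.787 and 0.857 in the authors' deposited table. None of the 13 PRPF proteins was rhythmic in EpiKO only, had different rhythms or was left without a class.

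Among the snRNP proteins, 7 of 12 were rhythmic in some class and all 7 peaked in the dark phase. Snrpd3, Snrpa1 and Snrpd2 had the same rhythm in both genotypes. Snrpd3 (chr10:75517551-75537381, plus strand), a protein of the Sm ring shared by most snRNPs, ran between 10.04 and 10.32 in EpiKO and between 9.39 and 9.67 in WT in the authors' deposited table. It changed 1.22-fold with a peak at ZT20.3 and a weight of 0.779 by the authors' deposited table, and the fitted EpiKO range lay wholly above that of WT. Snrpa1, a U2 snRNP protein, changed 1.20-fold around ZT18.7, and Snrpd2, also of the Sm ring, 1.13-fold around ZT18.3, with weights of 0.635 and 0.517 in the authors' deposited table.

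In WT only, Snrpa (chr7:27187005-27196271, minus strand), which binds a stem loop of U1 RNA, was flat at 9.02 in EpiKO and ran between 9.18 and 9.62 in WT in the authors' deposited table. Its change of 1.36-fold was the largest of the WT-only members, with a peak at ZT20.1 and a weight of 0.588 by the authors' deposited table. The summed weight of Snrpa for a rhythm in EpiKO was 0.412, so flat describes the chosen model and the support was divided. Snrpd1 changed 1.25-fold in WT around ZT18.8 with a weight of 0.704, and Snrpb, another Sm protein, 1.16-fold around ZT14.2 with a weight of 0.763 by the authors' deposited table. Snrpf (chr10:93583029-93589706, minus strand), also of the Sm ring, was the single snRNP protein rhythmic in EpiKO only. In the authors' deposited table it ran between 5.70 and 6.13 in EpiKO and was flat at 7.59 in WT, a 1.35-fold change with a peak at ZT18.6 and a weight of 0.612. It was among the 4 members with an average mean under 8, and 89.4% of its windows are shared, mainly with Ccdc38 on the opposite strand, so its values are uncertain. Snrpe and Snrpg, also Sm proteins, had no rhythm, with weights of 0.896 and 0.662 in the authors' deposited table, as did Snrpb2 and Snrpn, and Snrpc was not assigned.

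The windows of 3 core spliceosome genes with the same rhythm and a peak in the dark phase are printed beside those of the light-phase hnRNPs, chr19:10894981-10895280, plus strand for Prpf19, chr7:3629735-3630034, plus strand for Prpf31 and chr10:75517792-75518091, plus strand for Snrpd3, with the same capitals.
Prpf19: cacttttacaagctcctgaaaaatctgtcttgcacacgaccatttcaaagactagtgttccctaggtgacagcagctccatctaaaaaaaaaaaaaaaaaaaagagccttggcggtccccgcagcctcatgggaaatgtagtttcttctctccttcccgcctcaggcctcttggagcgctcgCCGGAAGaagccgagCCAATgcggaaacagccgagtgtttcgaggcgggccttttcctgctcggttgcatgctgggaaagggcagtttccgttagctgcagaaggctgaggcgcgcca
Prpf31: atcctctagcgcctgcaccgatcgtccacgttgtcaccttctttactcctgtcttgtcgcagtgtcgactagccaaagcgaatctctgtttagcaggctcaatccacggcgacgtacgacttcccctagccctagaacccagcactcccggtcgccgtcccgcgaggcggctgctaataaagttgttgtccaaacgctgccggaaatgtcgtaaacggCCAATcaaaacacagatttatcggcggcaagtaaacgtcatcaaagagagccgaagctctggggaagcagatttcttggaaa
Snrpd3: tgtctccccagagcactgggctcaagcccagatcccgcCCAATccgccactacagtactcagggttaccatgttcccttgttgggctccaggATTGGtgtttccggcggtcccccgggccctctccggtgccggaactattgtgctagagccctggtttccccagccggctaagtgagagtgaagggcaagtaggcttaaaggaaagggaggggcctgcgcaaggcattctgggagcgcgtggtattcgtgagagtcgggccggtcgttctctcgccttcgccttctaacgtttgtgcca
Each of the 3 had a CCAAT box, at -53 in Prpf19, -32 in Prpf31 and both -158 and -212 in Snrpd3, and Prpf19 an ETS motif at -68. None of the 6 windows of the 5 same-rhythm core genes had an E-box, and the windows of Snrpa1 and Snrpd2 had none of the 3 marked motifs.

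Rhythmic core spliceosome members, those with the prefixes Snrp, Prpf, Sf3a and Sf3b, peaked mostly in the dark phase, and hnRNPs and SR proteins in both phases. Listed spliceosome genes outside the prefixes peaked in both phases, as given further on. In EpiKO, all 6 rhythmic Snrp, Prpf, Sf3a and Sf3b members peaked in the dark phase between ZT18.2 and ZT20.3, with a circular mean of ZT19.0, whereas 8 of the 13 rhythmic hnRNPs and SR proteins peaked in the light phase. In WT, 12 of 13 rhythmic core members peaked in the dark phase, with a circular mean of ZT18.3, against 8 of 13 hnRNPs and SR proteins. Of the genes rhythmic in each genotype, 51.5% in EpiKO and 47.9% in WT peaked in the light phase. Between ZT16 and ZT20 peaked 1143 of these 4188 genes in EpiKO and 1164 of 4914 in WT. Between ZT4 and ZT8 peaked 1140 in EpiKO and 951 in WT, so both times were common among all rhythmic genes. Over the 14 members with the same rhythm, 4 peaked in the light phase (28.6%), all hnRNPs, and 10 in the dark phase, with a circular mean of ZT19.4, while 50.2% of the 2954 genes of that class peaked in the light phase. The resultant length is 1 when all peaks coincide, and 0 when they are spread evenly or when opposite peaks cancel. It was 0.365 for these 14 members, 0.976 for the 5 core members among them and 0.074 for all genes of the class. The peaks of all genes of the class were not spread evenly. Of them 743 fell between ZT4 and ZT8 and 862 between ZT16 and ZT20, but 216 between ZT0 and ZT4. The length also tends to be larger in small sets, so these values are not like for like. In the WT-only class 1 of 11 members peaked in the light phase, against 47.5% of the genes of that class. Genes are not independent replicates, and the split between families was noticed in these data and not tested.

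**Figure D3:**
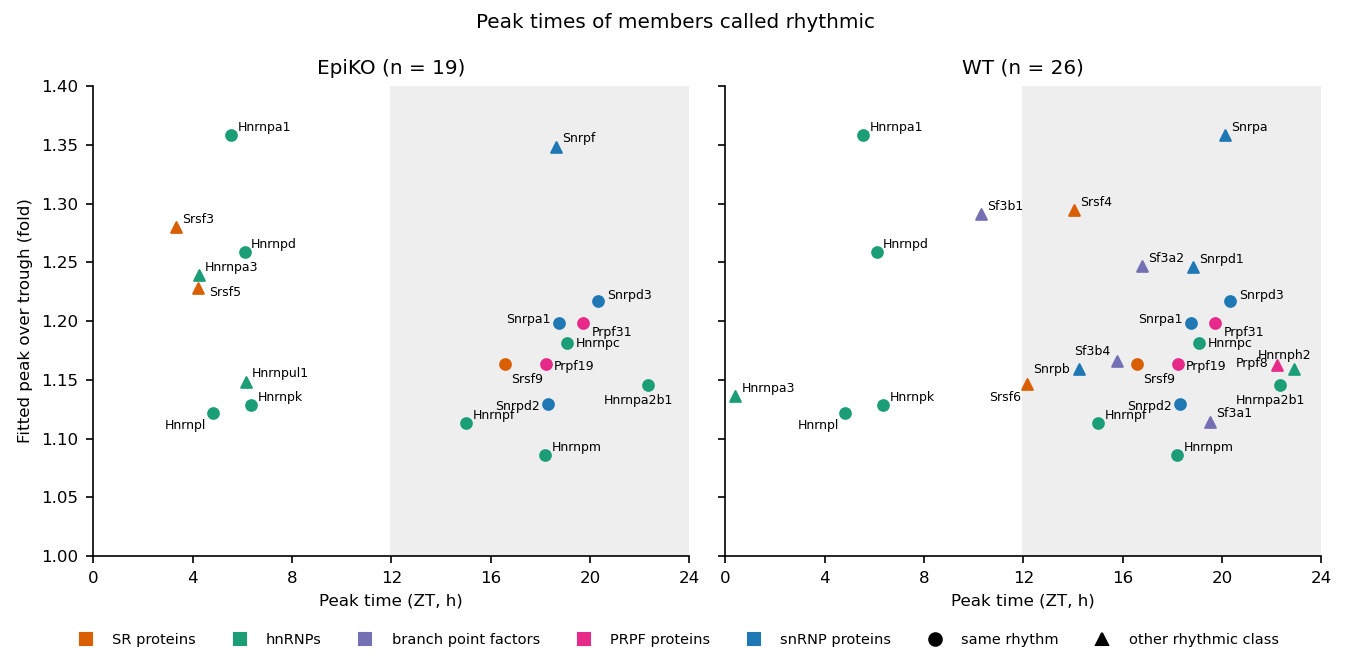
Peak time (ZT in h, horizontal axis, dark phase shaded) and peak over trough of the fitted curve (fold, vertical axis) of the 19 members rhythmic in EpiKO and the 26 rhythmic in WT; circles have the same rhythm in both genotypes. Core members (purple, pink and blue) sit in the dark phase apart from Sf3b1 in WT, and all light-phase points in EpiKO are hnRNPs or SR proteins.

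All daily changes of the members were small. The median fold of the 14 same-rhythm members was 1.16, with a range of 1.09 to 1.36, against 1.24 for all genes of the class and 1.20 for those with an average mean of at least 8. The median was 1.25 for the 4 EpiKO-only members, against 1.42 for all genes of that class, and 1.17 for the 11 WT-only members, against 1.35. Among genes with an average mean of at least 8 the medians were 1.24 for the EpiKO-only class and 1.27 for the WT-only class, so the EpiKO-only members were close to genes of like level. Under a stricter reading, with summed weights for a rhythm of at least 0.9, 11 members (16.2%) were rhythmic in EpiKO, against 14.2% of all genes, and 17 (25%) in WT, against 20.2%. Among genes with an average mean of at least 8 these shares were 21.1% in EpiKO and 30.9% in WT.

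**Figure D4:**
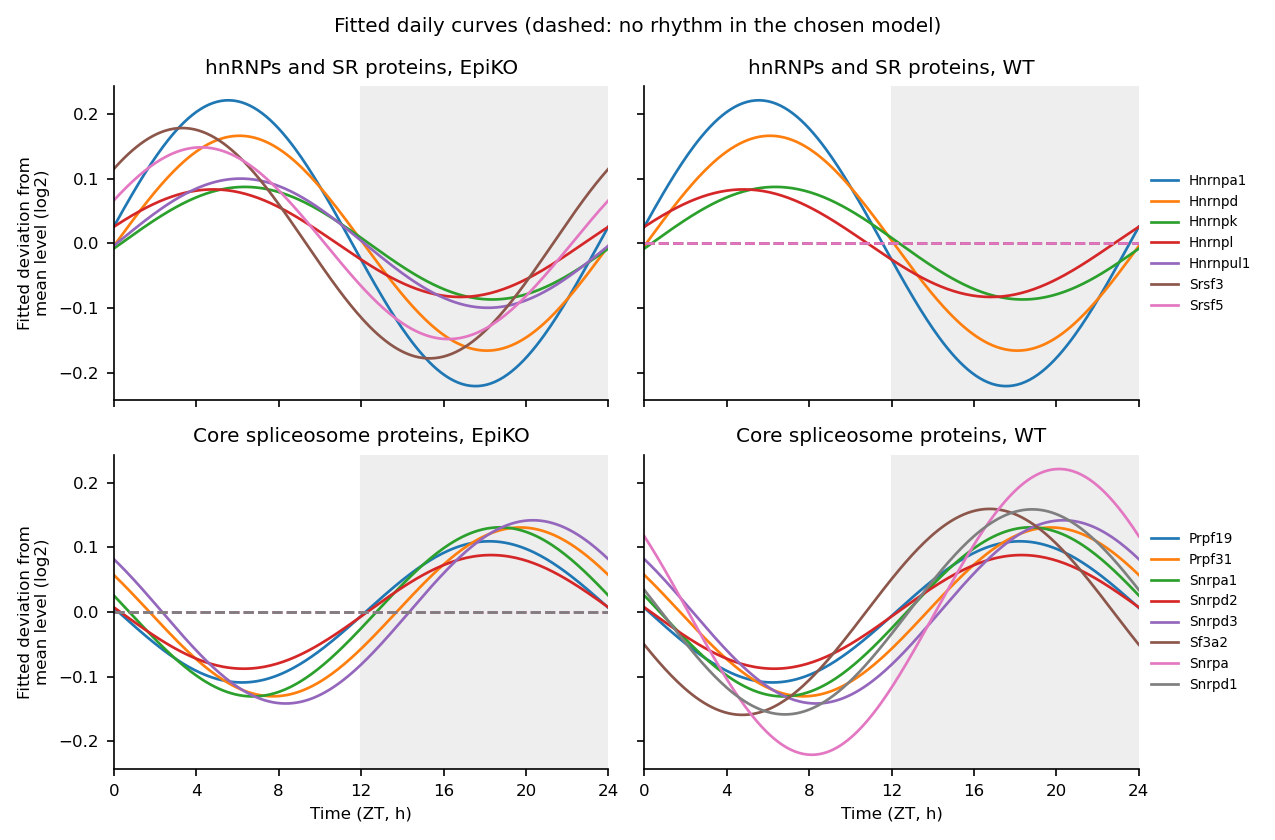
Fitted daily curves as the deviation from the mean level (log2, vertical axis) over ZT (h, horizontal axis, dark phase shaded), for 7 hnRNPs and SR proteins (top) and 8 core spliceosome proteins (bottom), in EpiKO (left) and WT (right). Dashed lines at 0 are genes with no rhythm in that genotype's chosen model: Hnrnpul1, Srsf3 and Srsf5 in WT, and Sf3a2, Snrpa and Snrpd1 in EpiKO.

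Of the members near the assignment limit, 8 had a largest weight between 0.45 and 0.5 and were left out: Hnrnpdl (0.452), Hnrnph1 (0.454), Srsf10 (0.462), Hnrnpa0 (0.462), Hnrnph3 (0.463), Snrpc (0.474), Srsf1 (0.489) and Srsf2 (0.491), by the authors' deposited table. Just inside, between 0.5 and 0.55, stood 7: Srsf6 (0.516), Snrpd2 (0.517), Hnrnpll (0.523), Hnrnpl (0.526), Prpf39 (0.528), Prpf18 (0.537) and Prpf40b (0.544), by the authors' deposited table. A member on either side of the limit thus differs little in support.

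Mean levels were called from the authors' 2 models of the mean, again at a weight of at least 0.5. By that call 33 members (48.5%) were higher in EpiKO, against 32.7% of all genes and 44.5% of those with an average mean of at least 8, and 31 (45.6%) were lower, against 37.4% and 36.9%. The 4 others, Srsf12, Hnrnpm, Prpf31 and Snrpd1, had 1 mean for both genotypes. The median difference of EpiKO minus WT was 0.00 (log2) over the members and over all genes, and 47 of 68 members lay within 0.5. Calls at this weight include differences as small as the 0.06 of Hnrnpk.

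The largest differences fell on members whose sequence is shared with other genes. U2af1l4, a relative of U2af1, had a mean of 3.17 in EpiKO and 8.26 in WT in the authors' deposited table, a difference of -5.09 (log2), and 65.6% of its exon bases overlap Gm49396 on the same strand. Hnrnpf had 8.96 in EpiKO and 13.04 in WT in the authors' deposited table, a difference of -4.08, with 61.7% of its windows shared with other genes, most with the processed pseudogene Gm6430. Hnrnpa3 differed by -4.03 with 27.0% of windows shared, and Sf3b4 by -1.94 with 45.0% shared. Lower by at least 1 were 8 members (11.8%), against 16.8% of all genes, and higher by at least 1 were 2 (2.94%), against 4.53%. All 8 of the lower ones, these with Srsf4 (-1.85), Snrpf (-1.67), Hnrnpa1 (-1.19) and Hnrnpab (-1.01), had over 20% of windows shared.

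In the other direction Snrpn, an imprinted relative of Snrpb, had a mean of 4.52 in EpiKO and -2.49 in WT in the authors' deposited table. The WT value is the lowest in the whole table and 17 genes hold it, so no fold is given, and 26.4% of its windows are shared, mainly with Gm38393 at the same locus. Hnrnph3 was higher by 1.61 with a mean of 9.40 in EpiKO and 7.79 in WT in the authors' deposited table, and few of its windows (2.0%) are shared. Snrpd3 was higher by 0.65 with 4.68% of windows shared, and Sf3b6, the SF3B subunit that contacts the branch point, by 0.65 with none shared. Thus Hnrnph3 was the single member with a difference of at least 1 in either direction and at most 5% of windows shared.

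**Figure D5:**
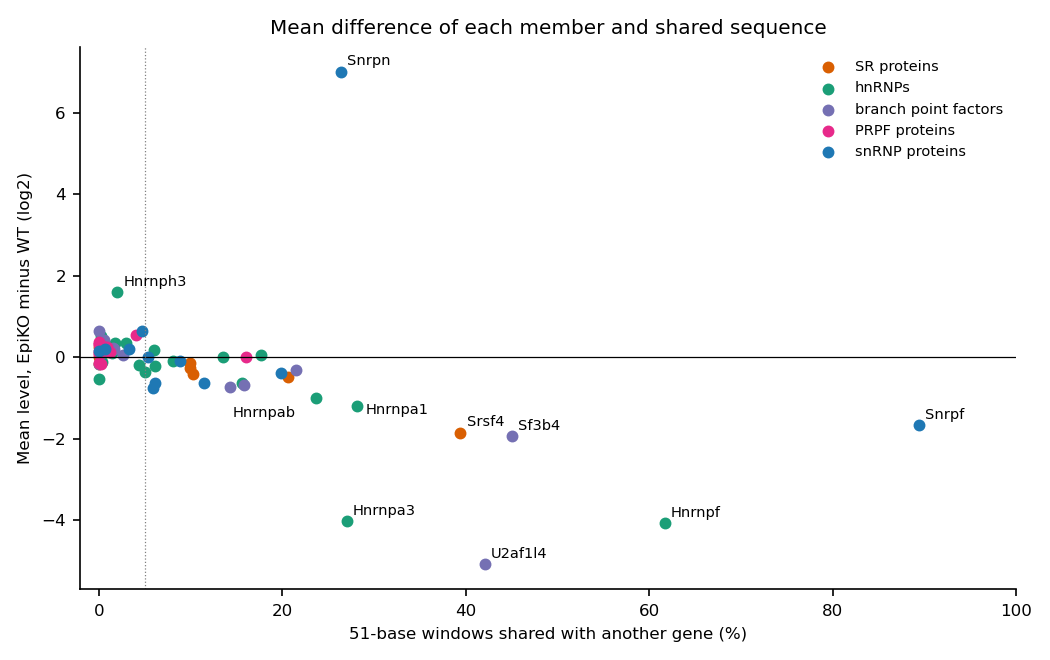
Difference in mean level (EpiKO minus WT, log2, vertical axis) of each of the 68 members against the share of its 51-base windows that occur in another gene's transcripts (%, horizontal axis); the dotted line stands at 5% and colours mark the families. Members below -1 all lie beyond 20% shared windows, and Snrpn is the single point far above 0.

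Split by shared sequence, the direction of the mean differences turned round. Of 38 members with at most 5% of windows shared, 30 were higher in EpiKO and 7 lower, with a median of 0.20 and a range of -0.54 to 1.61. Of 30 members over 5%, 3 were higher and 24 lower, with a median of -0.44, and of the 11 members over 20%, 1 was higher and 10 lower, with a median of -1.67. Over protein-coding genes in general, members included, another measure was used, the share of exon bases overlapped by another gene. By that measure the means of strongly overlapped genes were mostly lower. Among protein-coding genes with an average mean above 5, the median difference was -3.44 in 78 genes with at least 50% of exon bases overlapped on the same strand. It was -1.07 in 85 genes so overlapped on the opposite strand. U2af1l4 is among the 78 genes and Snrpf among the 85, so these groups are not independent of the members. In those groups 85.9% and 51.8% were lower in EpiKO by at least 1, against 6.22% of 7618 genes with under 1% overlap on either strand, whose median was 0.00. Of those 7618 genes, 3508 were called higher and 2427 lower. They were filtered on overlap and not on shared windows, and Hnrnpa1, with 28.2% of windows shared, is among them. Their split is therefore not like for like with the 30 and 7 of the members with little sharing. The sources used here do not say how reads that fit several genes were counted in each genotype, so a difference in counting and a difference in genotype cannot be told apart for the means of these members.

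Members with shared sequence stood in every rhythm class, and the part of sharing in the calls was not tested. Of all 68 members 30 had over 5% of windows shared, and of the 13 not assigned 3 had. Of the 14 same-rhythm members 8 had over 5% of windows shared, as had 3 of the 4 EpiKO-only, 6 of the 11 WT-only, 9 of the 25 no-rhythm members and the 1 with different rhythms. Among the 38 members at or under 5%, 6 had the same rhythm (Hnrnpa2b1, Hnrnpl, Prpf19, Snrpa1, Snrpd3 and Srsf9), 1 was rhythmic in EpiKO only (Hnrnpul1) and 5 in WT only (Prpf8, Sf3a1, Sf3b1, Snrpb and Srsf6). Of those 6 same-rhythm members, Hnrnpl was the one with a light-phase peak.

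Among 84 listed splicing genes outside the 7 prefixes, 22 (26.2%) had the same rhythm, 4 (4.76%) were rhythmic in EpiKO only, 5 (5.95%) in WT only, 1 had different rhythms, 34 had none and 18 were not assigned. Against these, the members had 16.2% in the WT-only class and 20.6% in the same-rhythm class, differences that were not tested. Esrp1 (ZT5.65), an epithelial splicing regulator, Ptbp3 (ZT5.63) and Khdrbs1 (ZT6.90) shared the same-rhythm class and, with Hnrnpa1, Hnrnpd, Hnrnpk and Hnrnpl, had peaks between ZT4.82 and ZT6.90 in the authors' deposited table. Others of the class peaked in the dark phase, among them Usp39 (ZT18.4, 1.38-fold), a protein of the tri-snRNP, and the RNA-binding proteins Tardbp and Pcbp1 (ZT17.9 each) in the authors' deposited table. By the same source, Snrnp200 (ZT0.758) and Ddx46 (ZT9.23), also spliceosome proteins of the class, peaked in the light phase. The spliceosome proteins Aqr (ZT20.4) and Dhx16 (ZT18.2) peaked in the dark phase. Of the 22, 13 peaked in the light phase and 9 in the dark phase, with a resultant length of 0.112. Ptbp1, a repressor of exon inclusion, and Ewsr1, an RNA-binding protein, were rhythmic in EpiKO only around ZT5.18 and ZT6.09, with weights of 0.927 and 0.913 in the authors' deposited table. The other 2 of that class were Lsm4, an Sm-like protein, with a peak at ZT7.09, and Crnkl1, a spliceosome protein, with a weight of 0.774 and a peak at ZT16.3 in the authors' deposited table. By mean level 36 of the 84 were higher in EpiKO (42.9%, against 32.7% of all genes and 44.5% of those with an average mean of at least 8) and 39 lower (46.4%, against 37.4% and 36.9%).

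Of the 8 kinases listed that phosphorylate SR proteins, 3 had the same rhythm (37.5%, against 16.7% of all genes and 25.4% of those with an average mean of at least 8). Clk1, which releases SR proteins from nuclear speckles, changed 1.34-fold around ZT7.40, Clk4 1.21-fold around ZT10.1, and Srpk2, a cytoplasmic SR kinase, 1.17-fold around ZT8.23 in the authors' deposited table. Clk3 was rhythmic in WT only, 1.29-fold around ZT11.0 in the authors' deposited table, and Clk2, Dyrk1a and Srpk1 were not assigned. All 4 assigned rhythms of the kinases peaked in the light phase, as did 50.2% of all same-rhythm genes and 47.5% of all WT-only genes.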

How the data were processed

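The members and gene lists were chosen with earlier results of these data known, and GENCODE M21 symbols matched 17720 of 17721 identifiers. Per the labels' protocols, epidermis was freed with dispase and stranded libraries of polyadenylated RNA were read as single 51-base reads. Per the submitters' processing notes, the tools were featureCounts 1.6.0, HISAT2 2.2.1, Trimmomatic 0.36, edgeR and SAMtools 1.3.1 and the build was mm10, with no roles or settings given. The sources used here do not give the strand setting of the counting or the scaling of libraries. The authors deposited 1 table of the dryR comparison, which holds model weights as scores from 0 to 1, fitted mean levels on a log2 scale, cosine coefficients and peak-to-trough heights in log2, and peak times in hours and relative amplitudes as scores. Its second side has a label that names no genotype and was read as EpiKO, because the comparison has 2 sides and the other is WT.

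Models were read from their parameters: model 1 has no rhythm, 2 one in EpiKO, 3 one in WT, 4 the same and 5 different rhythms. The deposited height was 2 times the length of the vector of cosine and sine coefficients, within 1e-06, in 5062 EpiKO and 5914 WT rhythms, so folds are 2 to that power. A gene was assigned at a weight of at least 0.5. Values per library are not in the table, so depth, precision and replicates could not be assessed, and the planned tests across libraries were not run. Levels per kilobase divide by the union of exons. Shared sequence is the share of a gene's 51-base windows found in transcripts of other genes on either strand. Values are given for every rhythmic member, the 2 members per family with no rhythm and the highest level per kilobase, the 4 largest mean differences each way and members with weights of 0.45 to 0.55. Members described with their sharing, motifs or marginal weights beyond that rule, and genes of the 2 further lists, were named after their values were seen. Calculations used Python 3.11.15, NumPy 2.4.6 and pandas 2.3.3. The peak and height formulas were run on simulated coefficients without noise, which checks the arithmetic only. The class calls were not tested against known classes. Promoter windows are from RefSeq on GRCm38.p6. Alternatives were other weight limits, a minimum height or difference, filters on low means and shared windows, sums of weights, centring of means and a wider gene list.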

Additional observations from a re-analysis of the deposited data

Results flagged for a closer look

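For 3 members the fits of EpiKO and WT differed with a summed weight of at least 0.9 for the models in which the rhythms are unequal. The sum was 0.990 for Srsf4 and 0.985 for Sf3a2, both flat in EpiKO and rhythmic in WT, and 0.916 for Hnrnpul1, rhythmic in EpiKO and flat in WT. These sums are model weights, not p-values, and there are no values per mouse from which the difference could be tested. Srsf4 has 39.4% and Sf3a2 15.8% of 51-base windows in other genes, both mainly on the opposite strand, and Hnrnpul1 0.37%. The part of shared sequence in these rhythms was not tested.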

How the results depend on the processing

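The 14 members with the same rhythm became 6 at a weight limit of 0.8, 6 without the members over 5% shared windows, 5 with a minimum height of 0.25 (log2) and 36 with the other splicing genes added. The 11 rhythmic in WT only became 2, 5 and 5 under the first 3 of these, in that order. The 4 rhythmic in EpiKO only became 1 at the limit of 0.8, 1 without shared windows, 7.65 as a sum of weights and 8 with the other splicing genes. The 1 with different rhythms became 0, 0, 3.06 and 2 under those 4 settings, and the 25 with no rhythm 8 at the limit of 0.8, 16 without shared windows and 59 with the other genes. The cause was not tested, apart from the smaller or larger gene lists. With a minimum difference of 0.5, 6 members were higher and 15 lower in EpiKO, in place of 33 and 31, and 7 were lower without shared windows. The circular mean peak of same-rhythm members was at 22.1 h, in place of 19.4 h, with the minimum height. Both of the next readings were chosen after seeing the data: with summed weights of at least 0.9, 11 members in place of 19 were rhythmic in EpiKO and 17 in place of 26 in WT, and without shared windows 7 and 11 were. No limit, a limit of 0.4 and the filter on low means kept every count within 1.5 times, and centring kept all 64 mean calls of single members. Of 55 assigned members, 38 lost the call at 0.8, and of 30 rhythmic ones 16 at the minimum height. Leaving out replicates was not run because the table has no values per library. No paired analysis was possible because the table has no values per library. Depth limits every value to an unknown degree.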
